A study of Mus musculus with 5 samples.

Results

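The transcripts described are 9 genes of the Hippo pathway and its output, Ccn1, Ccn2, Ankrd1, Amotl2, Thbs1, Axl, Lats2, Ajuba and Wwc1. They were taken by symbol, as every probe set annotated to that symbol alone, which gave 23 probe sets of the 45101 on the array. Lats2 is the only Hippo kinase among them: Ajuba and Wwc1 encode adaptor proteins, and Axl encodes a receptor tyrosine kinase. RNA came from cultured mouse B9 cells of cutaneous squamous cell carcinoma origin, and every culture carried the genotype HRAS-Q61L, an activating change of a RAS protein. Exposure lasted 17 h, to vemurafenib (also PLX4032) at 1 µM on 2 arrays, to PLX7904 at 1 µM on 2 arrays, or to the vehicle DMSO on 1 array. Vemurafenib blocks mutant BRAF but can activate RAF signalling in RAS-mutant cells, and PLX7904 belongs to the paradox breakers, BRAF inhibitors made to avoid that activation. The vehicle is labelled 0.2% DMSO, whereas 2.4 µL of stock in 12 mL of medium is a smaller share, so vehicle exposure may differ between the treated cultures and the control. The arrays are described as biological replicates of 1 cell line, and nothing says whether their cultures were separate. The spread behind each p-value is that of these arrays and may be technical. It is drawn largely from other genes of similar signal (2 residual and 8.27 prior degrees of freedom).

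The Hippo pathway is a kinase cascade in which MST kinases, with SAV1, activate LATS1 and LATS2, which with MOB1 phosphorylate the coactivators YAP and TAZ and keep them out of the nucleus. In the nucleus YAP and TAZ bind TEAD transcription factors and raise the transcription of genes such as Ccn1, Ccn2, Ankrd1 and Amotl2. Some of these targets feed back on the pathway: LATS2 and AMOTL2 restrain YAP. In skin, YAP is known for sustaining basal keratinocyte proliferation, and its activity is raised in squamous cell carcinomas.

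TEAD factors recognise the letters GGAATG, and some of the promoter windows that hold this short word are shown. RefSeq promoter windows (GRCm38.p6, 250 bases before the start and 50 from it) were at hand for 7 of the 9 genes (not Ccn2 and Thbs1), in 8 windows. GGAATG was searched on both strands, and its matches are in capitals below, as CATTCC where the match lies on the other strand. The windows are those of Ccn1 (chr3:145649936-145650235, minus strand), Ankrd1 (chr19:36119795-36120094, minus strand), Amotl2 (chr9:102717554-102717853, plus strand) and Ajuba (chr14:54577612-54577911, minus strand).
Ccn1: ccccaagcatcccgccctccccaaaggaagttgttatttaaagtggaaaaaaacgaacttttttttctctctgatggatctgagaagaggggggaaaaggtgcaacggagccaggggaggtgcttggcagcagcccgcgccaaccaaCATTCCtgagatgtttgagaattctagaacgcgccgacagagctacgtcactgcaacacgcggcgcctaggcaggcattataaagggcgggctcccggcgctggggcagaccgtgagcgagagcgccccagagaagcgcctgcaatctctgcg
Ankrd1: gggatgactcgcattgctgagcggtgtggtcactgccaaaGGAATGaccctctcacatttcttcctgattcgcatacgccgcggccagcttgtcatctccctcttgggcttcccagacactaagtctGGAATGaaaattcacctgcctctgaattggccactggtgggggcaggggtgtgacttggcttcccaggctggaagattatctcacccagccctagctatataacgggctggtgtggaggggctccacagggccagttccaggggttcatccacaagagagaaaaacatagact
Amotl2: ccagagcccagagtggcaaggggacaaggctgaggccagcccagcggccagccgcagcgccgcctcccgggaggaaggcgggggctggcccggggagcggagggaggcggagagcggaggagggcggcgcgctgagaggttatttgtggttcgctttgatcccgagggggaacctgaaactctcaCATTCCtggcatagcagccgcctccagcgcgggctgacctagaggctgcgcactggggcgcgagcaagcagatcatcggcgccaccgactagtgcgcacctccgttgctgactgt
Ajuba: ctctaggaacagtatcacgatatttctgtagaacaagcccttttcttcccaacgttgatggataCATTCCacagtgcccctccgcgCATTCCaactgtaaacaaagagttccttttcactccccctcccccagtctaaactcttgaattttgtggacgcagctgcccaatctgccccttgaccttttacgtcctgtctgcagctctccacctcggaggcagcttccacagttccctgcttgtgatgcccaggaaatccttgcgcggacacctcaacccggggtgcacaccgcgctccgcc

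Ankrd1 held 2 matches, at positions -210 and -123 from the start, and Ajuba held 2, at -186 and -164. Ccn1 held 1 match at -103 and Amotl2 held 1 at -65. In the windows not printed, Axl held 1 match at -233 and 1 Lats2 window held 1 at 5 bases from the start. The other Lats2 window and the Wwc1 window held none. At least 1 match thus stood in 6 of the 8 windows, against 14.66% of all 32851 promoter windows in the table, of which windows with 2 or more matches made up 1.36%. The AP-1 word TGANTCA, searched on both strands, occurred in 0 of the 8 windows and in 7.81% of all windows. The CArG box, the element read by serum response factor, occurred in 0 of the 8 and in 1.63% of all windows. A match is a run of letters and not a measured binding site.

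Signal is the authors' MAS5 value on a linear scale, and it does not compare levels between different probe sets. All 9 genes had a brightest probe set well past the lower limit of 47.4 for testing, with mean signals of 902 to 5157. Each gene was represented by that probe set, and differences are of log2(signal + 3.34). They were tested in limma over all 10852 genes past the limit, and a gene was called at an adjusted p under 0.05. Both comparisons with DMSO rest on a lone control array whose spread is assumed to equal that of the treated arrays. Fewer expressing cells and less RNA per cell cannot be told apart in these lysates.

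With vemurafenib, 2 of the 9 genes fell against DMSO, Thbs1 and Ccn2, 0 rose and 7 were not called. Over all genes 10.6% were called in that comparison, 5.43% higher and 5.21% lower. The 9 genes had a median log2 difference of -0.16, with 7 below 0, beside -0.05 for all genes tested. With PLX7904, 0 of the 9 genes were called against DMSO, and the share of all genes called was 0%. Limma called 0 genes of that comparison at an adjusted p under 0.05, and 722 had an unadjusted p under 0.05. Its median over the 9 genes was -0.23, with 7 below 0, beside -0.01 for all genes. Both comparisons use the same DMSO array, so their common direction is not independent evidence. Between the compounds, 1 of the 9 genes, Thbs1, was lower with vemurafenib, 0 were higher and 8 were not called. There 13.3% of all genes were called, 6.43% higher and 6.87% lower with vemurafenib than with PLX7904.

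Centring each array on its median in place of the deposited scaling moved the median of all genes by 0.15 in both comparisons that hold vemurafenib. The median of the 9 genes for vemurafenib against DMSO was then -0.01, with 5 below 0, beside 0.10 for all genes tested. The calls of Thbs1 and Ccn2 remained in the fit over genes. When all probe sets were tested in place of 1 per gene, 1 probe set of the 9 genes was called, beside 2 with the deposited scaling. PLX7904 against DMSO kept 7 of 9 below 0 under that scaling.

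Among the secreted targets, Thbs1 encodes thrombospondin 1, a matricellular glycoprotein that binds matrix and cell-surface receptors and activates latent TGF-beta. Its brighter probe set read 1254 and 1282 with vemurafenib, 2086 and 2226 with PLX7904, and 2775 with DMSO. The 3 groups did not overlap: both vemurafenib arrays lay lowest, both PLX7904 arrays in the middle and the DMSO array highest. Vemurafenib gave a log2 difference of -1.13 from DMSO (SE 0.10), which is 2.19-fold lower (95% interval 1.88 to 2.55, limma adjusted p = 1.09e-04). That difference was the 148th lowest of 10852. Against PLX7904 at the same dose and time, Thbs1 was 1.70-fold lower with vemurafenib (95% interval 1.50 to 1.93, limma adjusted p = 2.875e-04). This is the direct test of a difference between the compounds. PLX7904 against DMSO gave -0.36 (SE 0.10, 95% interval -0.59 to -0.14), the 699th lowest of 10852. It was not called (limma adjusted p = 0.462), in a comparison where limma called 0 genes.

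A second, dimmer Thbs1 probe set did not separate the compounds. It read 286 and 269 with vemurafenib, 216 and 401 with PLX7904, and 510 with DMSO. DMSO again stood highest, but the PLX7904 arrays lay on either side of both vemurafenib arrays. Its log2 differences were -0.87 for vemurafenib against DMSO (adjusted p = 0.112 over 19755 probe sets), -0.79 for PLX7904 against DMSO and -0.08 between the compounds. The mean of the probe sets of Thbs1 gave -0.42 between the compounds, and that difference was not called (limma adjusted p = 0.171). Without an intensity trend in the variance, the limma adjusted p of Thbs1 was 0.0627 against DMSO and 0.0592 against PLX7904.

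Ccn2 encodes connective tissue growth factor, a matricellular protein and among the most used readouts of YAP activity. Its single probe set read 1570 and 1668 with vemurafenib, 1693 and 1913 with PLX7904, and 2424 with DMSO. All 4 treated arrays were below DMSO, and the vemurafenib arrays were just below the PLX7904 arrays. Vemurafenib against DMSO was -0.58 (SE 0.11), 1.50-fold lower (95% interval 1.26 to 1.77, limma adjusted p = 0.0086). PLX7904 against DMSO was -0.43 (SE 0.11, 95% interval -0.67 to -0.185) and was not called (limma adjusted p = 0.415). The compounds differed by -0.15, with a 95% interval of -0.35 to 0.05 that includes 0 (limma adjusted p = 0.311). Ccn2 was therefore called in 1 comparison with DMSO and not in the other, and the direct test did not separate the compounds. Without an intensity trend its call ended (limma adjusted p = 0.126).

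Ccn1, which encodes the matricellular protein CYR61, was not called in any comparison. Its brightest probe set read 1839 and 1798 with vemurafenib, 1526 and 1719 with PLX7904, and 2028 with DMSO. DMSO was highest, and in this probe set the PLX7904 arrays lay below the vemurafenib arrays, the reverse of Ccn2 and of the brighter Thbs1 probe set. The log2 differences were -0.16 for vemurafenib and -0.32 for PLX7904 against DMSO (SE 0.11 each), with limma adjusted p = 0.397 and 0.550. Between the compounds the brightest probe set gave 0.17, with a 95% interval of -0.03 to 0.36. The other Ccn1 probe sets gave 0.23, 0.10 and -0.0064 there, none called. In those at 0.10 and -0.0064 the arrays of the compounds overlapped. All 4 Ccn1 probe sets were below 0 in both comparisons with DMSO. They ranged over -0.66 to -0.09 for vemurafenib and -0.65 to -0.32 for PLX7904, with the dimmest probe set at the lower end of each range.

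**Figure D1:**
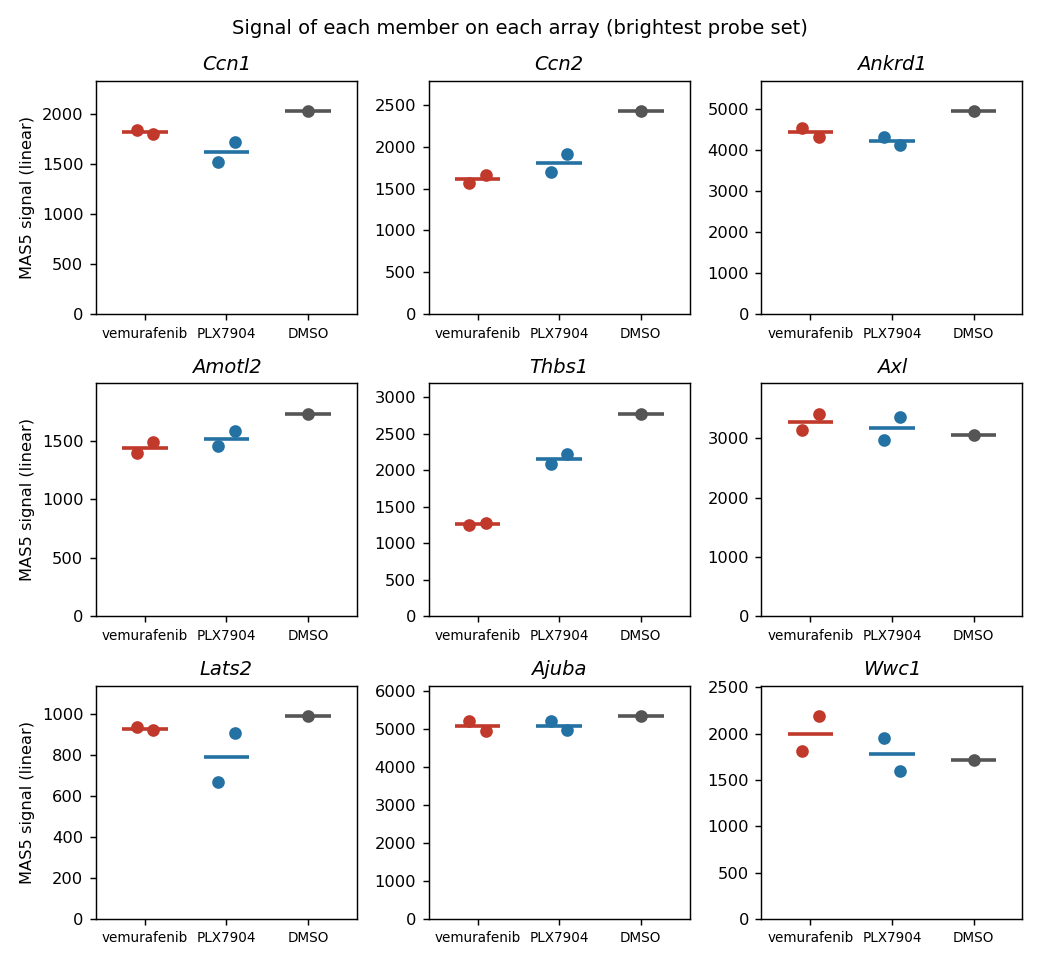
MAS5 signal (linear axis from 0) of the brightest probe set of each of the 9 genes on each array, by group, with a line at the group mean. Thbs1 shows 3 separate levels, 1254 and 1282 with vemurafenib, 2086 and 2226 with PLX7904, and 2775 with DMSO. Ajuba lies between 4936 and 5324 on all arrays.

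Among the intracellular targets, Ankrd1 encodes a nuclear ankyrin-repeat protein best known from stressed heart muscle. It read 4554 and 4321 with vemurafenib, 4315 and 4132 with PLX7904, and 4950 with DMSO. The treated arrays were all below DMSO, with log2 differences of -0.16 for vemurafenib and -0.23 for PLX7904 (SE 0.08 each). Neither was called (limma adjusted p = 0.270 and 0.621). The second Ankrd1 probe set, of similar signal, read 4254 and 4150 with vemurafenib, 4338 and 3669 with PLX7904, and 4034 with DMSO. Its differences from DMSO were 0.06 for vemurafenib and -0.02 for PLX7904, so the lower level in treated cells was seen in 1 of the 2 probe sets. The compounds differed by 0.07 in the brighter probe set (95% interval -0.08 to 0.22).

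Amotl2 encodes a motin family protein that binds YAP at cell junctions and holds it in the cytoplasm. Its single probe set read 1392 and 1492 with vemurafenib, 1455 and 1580 with PLX7904, and 1730 with DMSO. The compounds overlapped, and DMSO was above all 4 treated arrays. Differences from DMSO were -0.26 for vemurafenib and -0.19 for PLX7904 (SE 0.11 each), neither called (limma adjusted p = 0.158 and 0.817). The compounds differed by -0.07 (95% interval -0.27 to 0.12).

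Axl encodes a receptor tyrosine kinase of the TAM family, activated by GAS6. It read 3141 and 3411 with vemurafenib, 2971 and 3365 with PLX7904, and 3059 with DMSO. Both vemurafenib arrays were above DMSO, and the PLX7904 arrays lay on either side of it. Its differences were 0.10, 0.05 and 0.05 for vemurafenib against DMSO, PLX7904 against DMSO and vemurafenib against PLX7904, none of them called. The 95% interval between the compounds was -0.14 to 0.24.

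**Figure D2:**
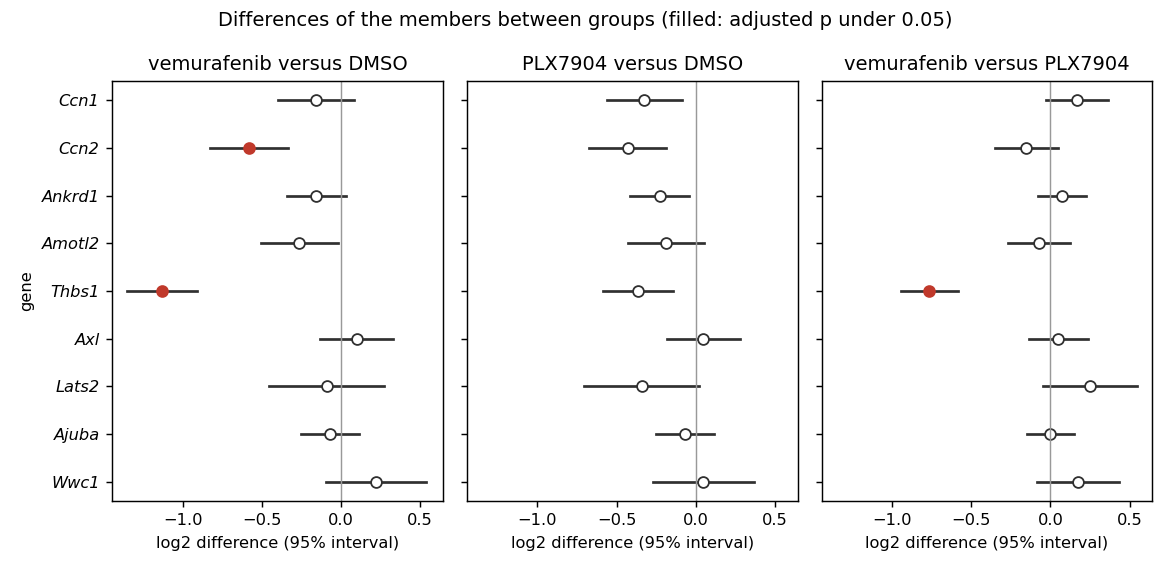
Log2 differences with 95% intervals for the 9 genes in the 3 comparisons, filled where called. Thbs1 is filled in the comparisons of vemurafenib with DMSO (-1.13) and with PLX7904 (-0.76), Ccn2 in that of vemurafenib with DMSO (-0.58). PLX7904 against DMSO has no filled point.

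None of the 3 regulators, Lats2, Ajuba and Wwc1, was called in any of the 3 comparisons. Lats2 encodes the kinase that phosphorylates YAP and TAZ and is itself a YAP target. Its brightest probe set read 935 and 922 with vemurafenib, 670 and 907 with PLX7904, and 989 with DMSO. DMSO was highest, and the vemurafenib arrays lay above both PLX7904 arrays, which were far apart. Differences were -0.09 for vemurafenib and -0.34 for PLX7904 against DMSO (SE 0.16 each), neither called (limma adjusted p = 0.772 and 0.763). Between the compounds Lats2 was 0.25 (95% interval -0.05 to 0.55, limma adjusted p = 0.264). It was called there without PLX7904 replicate 2 (0.47, limma adjusted p = 0.0298) and with median centring (0.40, limma adjusted p = 0.0391), so the difference turns on 1 array and on the scaling.

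A second Lats2 probe set read 424 and 440 with vemurafenib, 356 and 342 with PLX7904, and 440 with DMSO. The PLX7904 arrays were again the lowest, while DMSO lay level with the higher vemurafenib array. Its difference between the compounds was 0.31 and was not called. The other Lats2 probe sets past the limit were dim, with arrays between 95.9 and 206. They gave 0.59 and 0.12 for vemurafenib against DMSO, opposite in sign to the brighter ones, and none was called.

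Ajuba encodes a LIM-domain protein that binds LATS kinases and inhibits them. It read 5207 and 4936 with vemurafenib, 5200 and 4953 with PLX7904, and 5324 with DMSO. The compounds were nearly level, with a difference of -0.0014 and a 95% interval of -0.15 to 0.15. Against DMSO both compounds gave -0.07 (SE 0.08), and neither was called.

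Wwc1 encodes KIBRA, an upstream scaffold that activates the kinase cascade. It read 1814 and 2187 with vemurafenib, 1951 and 1599 with PLX7904, and 1710 with DMSO. Vemurafenib lay above DMSO on both arrays, and the compounds overlapped. Vemurafenib against DMSO was 0.22 (SE 0.14) and PLX7904 against DMSO was 0.05 (SE 0.14), neither called (limma adjusted p = 0.372 and 0.986). A second Wwc1 probe set read 1612 and 1827 with vemurafenib, 1485 and 1331 with PLX7904, and 1474 with DMSO. It too gave 0.22 for vemurafenib against DMSO, and 0.29 between the compounds, where its arrays did not overlap. It was not called.

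Arrays that do not overlap were common and carry little weight by themselves. The DMSO array lay outside both vemurafenib arrays for 9 of 9 genes, against 81.9% of all genes. It lay outside both PLX7904 arrays for 7 of 9, against 66.4%. The vemurafenib and PLX7904 arrays did not overlap for 5 of 9, against 56%.

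Of the 23 probe sets of the 9 genes, 18 passed the limit. The 5 that did not, 1 of Axl and 2 each of Lats2 and Wwc1, had mean signals of 12.3 to 31.6 and were not tested. Of the 18, 2 were called for vemurafenib against DMSO, beside 7.15% of all 19755 probe sets tested, and 12 were below 0. For PLX7904 against DMSO 0 were called (0% of all) and 15 were below 0. Between the compounds 1 was called, beside 9.17% of all, and 6 were below 0. The calls were those of the brighter Thbs1 probe set and of Ccn2.

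**Figure D3:**
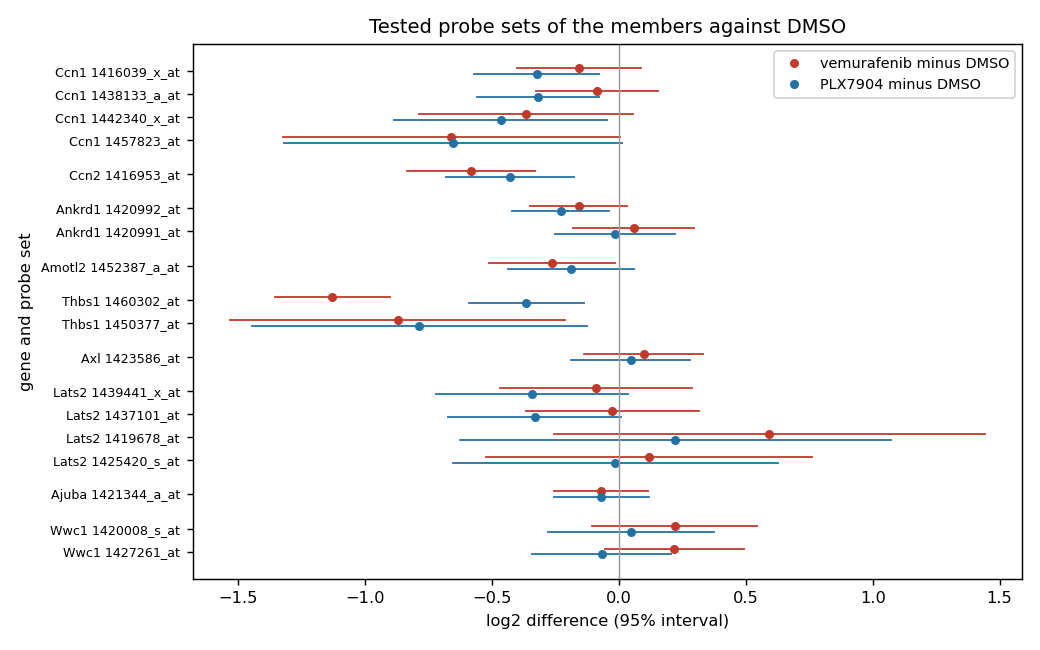
Log2 differences from DMSO with 95% intervals for the 18 probe sets past the limit, 1 row per probe set and grouped by gene, in red for vemurafenib and in blue for PLX7904. The Thbs1 probe sets lie at -1.13 and -0.87 for vemurafenib and at -0.36 and -0.79 for PLX7904, and the dim Lats2 probe set at 0.59 has a wide interval.

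The other genes of the pathway were taken as a list of 30 components, 28 of them past the limit (Stk3 had no probe set to itself, and Dchs1 was below it). Of these, 3 rose with vemurafenib against DMSO (Tead4, Wwtr1 and Ywhaz), 2 fell (Vgll3 and Ptpn14) and 23 were not called, in a comparison where 10.6% of all genes were. That count of 5 was 3 without vemurafenib replicate 1 and 8 without PLX7904 replicate 1 or without PLX7904 replicate 2. The median was 0.06, beside -0.05 for all genes. With PLX7904 0 were called (median 0.01). Between the compounds 2 were higher with vemurafenib (Tead4 and Wwtr1), 0 were lower, beside 13.3% of all genes called, and the median was 0.08. That count of 2 was 1 without vemurafenib replicate 1 or without vemurafenib replicate 2. The kinases of the list (Stk4, Lats1, Map4k4 and the TAO kinases) were not among those called. Without an intensity trend in the variance, 0 of the 28 were called in any comparison.

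Tead4 encodes a DNA-binding partner of YAP. It read 1130 and 987 with vemurafenib, 614 and 707 with PLX7904, and 577 with DMSO. It rose 1.83-fold with vemurafenib against DMSO (95% interval 1.47 to 2.27, limma adjusted p = 0.00399) and was 1.60-fold higher than with PLX7904 (1.34 to 1.91, limma adjusted p = 0.00407). A dimmer Tead4 probe set (mean signal 207) gave 0.57 against DMSO and was not called, and the Tead4 call against DMSO ended with the mean of its probe sets (0.72, limma adjusted p = 0.193) and without the brighter one, a probe set that may match several transcripts.

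Wwtr1 encodes TAZ, the paralogue of YAP. It read 3640 and 3709 with vemurafenib, 2824 and 3230 with PLX7904, and 2642 with DMSO. Against DMSO it rose 1.39-fold with vemurafenib (95% interval 1.19 to 1.62, limma adjusted p = 0.0144). The other Wwtr1 probe sets gave 0.78 and 0.67 on the log2 scale and were called as well. Against PLX7904 it was 1.22-fold higher (limma adjusted p = 0.0467), a call that ended without the filter, with quantile normalization and cyclic loess, and in 3 of the 4 fits that leave out an array. The other Wwtr1 probe sets were each 0.62 higher on the log2 scale than with PLX7904 and were called (limma adjusted p = 0.00686 and 0.00674 over 19755 probe sets). Yap1 itself read 3267 and 3723 with vemurafenib, 4236 and 3945 with PLX7904, and 3931 with DMSO. It was not called (-0.17 for vemurafenib against DMSO, -0.23 between the compounds).

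Vgll3 encodes a cofactor that competes with YAP for TEAD. It read 336 and 358 with vemurafenib, 428 and 436 with PLX7904, and 652 with DMSO. It fell 1.87-fold with vemurafenib against DMSO (95% interval 1.50 to 2.34, limma adjusted p = 0.00376), and all 3 of its probe sets were called there. In this probe set the PLX7904 arrays stood between, at -0.59 from DMSO, and that difference was not called (limma adjusted p = 0.362). Between the compounds Vgll3 was -0.31 (limma adjusted p = 0.111), and its probe sets disagreed there. A second gave -0.84 for vemurafenib and -0.91 for PLX7904 against DMSO, a difference of 0.07 between the compounds that was not called. The dimmest gave -0.69 between the compounds and was called (limma adjusted p = 0.0204 over 19755 probe sets).

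Smaller calls were less stable. Ptpn14, a phosphatase that binds YAP, read 643 and 757 with vemurafenib, 806 and 842 with PLX7904, and 1006 with DMSO, 1.44-fold lower with vemurafenib than with DMSO. Ywhaz, a 14-3-3 protein of the kind that holds phosphorylated YAP, read 17726 and 16649 with vemurafenib, 15708 and 15755 with PLX7904, and 14329 with DMSO, 1.20-fold higher with vemurafenib than with DMSO. Each had limma adjusted p = 0.0326, and each call ended without the filter, with quantile normalization, with median centring, with cyclic loess, with the mean of the gene's probe sets and without vemurafenib replicate 1. The 7 probe sets of Ywhaz ranged over -0.60 to 0.35 for vemurafenib against DMSO. Lats1, the paralogue of Lats2, was not called (0.27 for vemurafenib against DMSO), nor was Tead1 (-0.08). Between the compounds Tead1 was -0.21 (limma adjusted p = 0.200), and it was called without PLX7904 replicate 1 (-0.35, limma adjusted p = 0.0389).

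**Figure D4:**
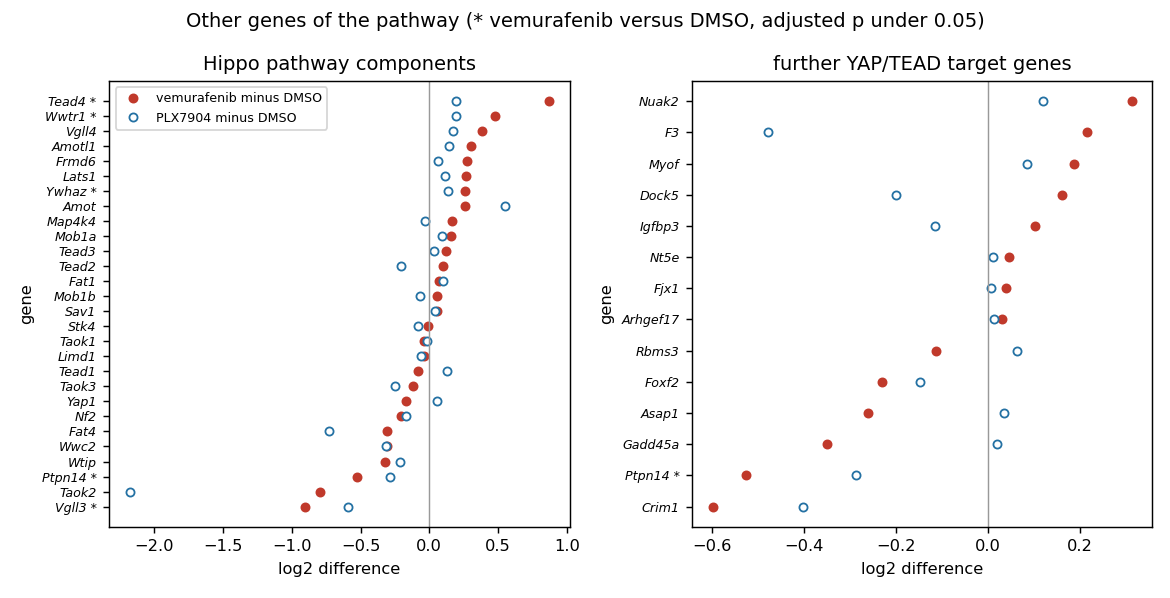
Log2 differences from DMSO for the 28 further Hippo components (left) and 14 further YAP/TEAD targets (right) past the limit, filled for vemurafenib and open for PLX7904, with an asterisk at genes called for vemurafenib. Tead4 (0.87) stands highest and Vgll3 (-0.90) lowest among the components for vemurafenib. The farthest open point is Taok2, a dim probe set at -2.18 that was not called.

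A list of 16 further YAP/TEAD targets had 14 past the limit. With vemurafenib against DMSO 0 rose and 1 fell, Ptpn14, which stands in both lists, beside 10.6% of all genes called. Without PLX7904 replicate 1 or without PLX7904 replicate 2 the count was 2, and it was 0 under each of the other scalings. The median was 0.04, beside -0.05 for all genes. With PLX7904 0 were called (median 0.01). Between the compounds 1 was higher with vemurafenib, Igfbp3, an insulin-like growth factor binding protein, and 0 were lower, beside 13.3% of all genes called. Over the alternatives that count ran between 0 (without vemurafenib replicate 2, among others) and 5 (at an adjusted p under 0.1). Igfbp3 read 14885 and 14023 with vemurafenib, 12233 and 12628 with PLX7904, and 13453 with DMSO. It was 1.16-fold higher with vemurafenib than with PLX7904 (limma adjusted p = 0.0300), and the call ended without the filter (limma adjusted p = 0.109) and in 3 of the 4 fits that leave out an array. In those 3 fits the log2 difference was 0.17 to 0.26, beside 0.22 with all arrays. The second Igfbp3 probe set gave 0.28 and was called (limma adjusted p = 0.0173 over 19755 probe sets).

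The genes whose log2 profiles over the 5 arrays lay nearest to Thbs1, after centring each gene on its own mean, were Id2 (Euclidean distance 0.13), Nrm (0.14) and Usp49 (0.15). Nearest to Ccn2 were Gpr85 (0.11), Lgalsl (0.11) and Ece1 (0.12). These distances describe 5 arrays, and a DMSO value above all treated arrays is shared by each of these genes.

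The arrays and the cells were checked over all genes. Replicate arrays correlated at r = 0.990 for vemurafenib and 0.989 for PLX7904 over log2 signals, and the DMSO array correlated at 0.990 with PLX7904 and at 0.980 to 0.981 with vemurafenib. Braf, the target of both compounds, was not called (-0.07 for vemurafenib against DMSO, SE 0.18). All 9 epithelial markers (Krt5, Krt14, Trp63, Itga6, Itgb4, Krt6a, Krt8, Krt18 and Cdh1) passed the limit. Their summed signal was 125860 to 126740 with vemurafenib, 112320 to 114680 with PLX7904 and 107080 with DMSO. Bright probe sets dominate that sum. The brightest 2% of all genes tested had median log2 differences from DMSO of 0.16 for vemurafenib and 0.14 for PLX7904. Between the compounds that median was 0.02. Of these markers Itga6, Krt8 and Krt18 rose with vemurafenib against DMSO and 0 fell, and Krt5 and Krt14 were not called there. Between the compounds 4 were higher with vemurafenib, Itga6 (0.37), Itgb4 (0.49), Krt8 (0.32) and Krt18 (0.49). Only Krt5 was called lower with vemurafenib than with PLX7904 (-0.23, limma adjusted p = 0.0175). Of the fibroblast markers 5 of 6 were below the limit (Col1a1, Col1a2, Col3a1, Dcn and Lum). Pdgfra, the receptor that passed it, rose 2.89-fold with vemurafenib against DMSO (limma adjusted p = 0.00327) and was 1.81-fold higher than with PLX7904 (limma adjusted p = 0.0166). The sum of all 6 was 373 to 402 with vemurafenib, 195 to 246 with PLX7904 and 164 with DMSO. Endothelial (4 of 5), melanocyte (3 of 4) and immune markers (2 of 4, Cd3e and Ptprc) were also below it. Their sums were at most 212 and 184 for endothelial and melanocyte markers on any array. Immune sums were 541 to 653 with vemurafenib, 444 to 477 with PLX7904 and 333 with DMSO. Most of each immune sum was Coro1a, an actin-binding protein of leukocytes. It read 401 and 467 with vemurafenib, 311 and 271 with PLX7904, and 229 with DMSO. Coro1a rose 1.88-fold with vemurafenib against DMSO (limma adjusted p = 0.0101). Cd68, the other immune marker past the limit, was not called against DMSO (0.73 for vemurafenib, limma adjusted p = 0.156). Between the compounds Cd68 was nearly level (-0.02). The part of these shifts in the values above was not tested.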

How the data were processed

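Per the submitters' processing notes, MAS5 produced the deposited values, an intensity per probe set (45101 in all) on a linear scale, with no version named. The middle 96% of values averaged about the same on every array, so arrays were scaled as a whole. No detection calls were used. Genes were named from the platform annotation: 34945 probe sets had 1 symbol and 932 several, and 2 probe sets with several, shared by Lats2 or Thbs1 with another gene, were left out. The brightest probe set stood for a gene, which gave 18193 genes. Testing took those whose mean reached 47.4, the median value of the table.

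The log2 of signal plus 3.34 (the 10th percentile) was fitted with limma 3.58.1 in R 4.3.3, with 3 group means, all 5 arrays and eBayes with an intensity trend (2 residual and 8.27 prior degrees of freedom). Tests were two-sided, with Benjamini-Hochberg adjustment within a comparison. A second fit took 19755 probe sets. The fit was checked on simulated data with set log2 changes in the vemurafenib arrays. Against DMSO it called 30 of 67 genes changed by 0.5, 52 of 67 changed by 1 and 62 of 66 changed by 2. It also made 16 false calls there. Between the compounds it called 39 of 67 genes changed by 0.5, with 17 false calls in that comparison. Genes named are the 9 genes, list genes called in any comparison, Yap1, Wwtr1, Tead1, Lats1 and Braf, and the 3 nearest profiles of Thbs1 and Ccn2. Taok2 and the called markers were named after their values were seen. The 9 genes, lists and rules were chosen with earlier results of these data known. Figures used Python 3.11.15 and matplotlib 3.10.9. Alternatives varied pseudocount, filter, scaling, variance model, probe sets, replicate block, arrays left out and threshold.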

Additional observations from a re-analysis of the deposited data

How the results depend on the processing

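In the fit over genes, the calls of Thbs1 and Ccn2 with vemurafenib against DMSO remained under every alternative except eBayes without an intensity trend. Without the trend, 0 of the 9 genes were called in each comparison. That setting lowered the calls over all genes to 43 for vemurafenib against DMSO and 35 between the compounds. Between the compounds, 2 of the 9 genes were called with median centring (Thbs1 and Lats2) and 0 with the mean of all probe sets, and 1 to 2 when an array was left out. Of the probe sets of the 9 genes, leaving out an array gave 3 to 4 calls for vemurafenib against DMSO and 0 to 1 for PLX7904 against DMSO. For vemurafenib against DMSO, 1 probe set was called with median centring, 1 at an adjusted p under 0.01 and 0 without a trend, beside 2 in the main fit. At 0.01 the Ccn2 probe set was the one no longer called (limma adjusted p = 0.0147 over 19755 probe sets). Between the compounds 2 were called with median centring and 0 without a trend. Over all genes, calls were 657, 443, 1793 and 431 for vemurafenib against DMSO with no filter, the mean of all probe sets, and thresholds of 0.1 and 0.01. Between the compounds they were 661 with the mean of all probe sets, 616 at 0.01 and 900 without vemurafenib replicate 1. Median centring gave 792 higher and 227 lower for vemurafenib against DMSO, and 1225 higher and 307 lower between the compounds. For PLX7904 against DMSO limma called 29 and 27 genes without vemurafenib replicate 1 and 2, and 5 with median centring.

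Signs turned in differences that were not called. With median centring, vemurafenib against DMSO was 0.080 for Ajuba, 0.059 for Lats2 and 0.066 for Tead1, and the difference between the compounds was 0.14 for Ajuba and 0.073 for Amotl2. With the mean of all probe sets Axl was -0.055 for vemurafenib against DMSO, -0.023 for PLX7904 against DMSO and -0.032 between the compounds, Tead1 was 0.27 for vemurafenib against DMSO and 0.024 between the compounds, and Ptpn14 was 0.0083 between the compounds. For PLX7904 against DMSO it gave -0.21 for Tead4 and -0.13 for Ywhaz. Without x, s and a probe sets, Ccn1 was -0.0064 between the compounds, and PLX7904 against DMSO was -0.61 for Tead4, -0.068 for Wwc1 and -0.056 for Ywhaz. Amotl2 and Ajuba have no value there. Igfbp3 was -0.044 with quantile normalization and -0.018 with cyclic loess for vemurafenib against DMSO. Leaving out an array gave Ajuba -0.040 to 0.037 between the compounds, Axl -0.042 to 0.14 for PLX7904 against DMSO, Axl -0.040 to 0.14 between the compounds, Tead1 -0.0036 to 0.26 for PLX7904 against DMSO and Wwc1 -0.10 to 0.19 for PLX7904 against DMSO. The causes were not tested.

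The replicate numbers showed no shared deviation: deviations of replicate 1 in the treated groups correlated at r = -0.0071 over 10852 genes. With 2 arrays in each treated group, that value cannot show whether cultures were handled in pairs. With a replicate block, 2, 0 and 1 of the 9 genes were called for vemurafenib against DMSO, PLX7904 against DMSO and between the compounds, as without it. Over all genes 1211, 4 and 1583 were called, beside 1154, 0 and 1443 without the block. Axl turned to -0.027 for PLX7904 against DMSO.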
